A study of Homo sapiens with 16 samples.

Results

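XBP1 and 9 other genes of the endoplasmic reticulum (ER) folding machinery were followed through 4 human bladder cancer cell lines, each grown for 48 h with CM-1758 or with vehicle. The genes were the rows of the gene count table with the symbols XBP1, HSPA5, HSP90B1, DNAJB9, HERPUD1, CALR, PDIA4, SDF2L1, ERN1 and ATF6, which are 10 of 35993 gene symbols, and all 10 were among the 21297 genes tested. They were listed for their roles, with earlier results of these data known. The listing also named a fall of XBP1 in all 4 lines. The XBP1 change is therefore given below as a description with no p, and counts of changed genes are over the other 9.

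The cell lines were 253J, J82, RT112 and TCCSUP, all labelled wild type and none genetically modified for the study. CM-1758 is a histone deacetylase (HDAC) inhibitor, and each line received it at its own half-maximal inhibitory dose, so the dose differed between lines and a difference between lines cannot be told apart from a difference in dose. Control cells received the DMSO vehicle according to the sample labels, whereas the study's figure text calls them untreated. Each of the 8 groups held 2 libraries of total RNA, described by the study as independent experiments, 16 libraries in all, and the p-values measure only the spread between those libraries. 253J, J82 and RT112 were grown in DMEM and TCCSUP in EMEM. A line stands for itself here and not for a class of tumours.

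Library totals were 27655401 to 32537104 counts in controls and 22506431 to 31547585 with CM-1758. Of 16 urothelial and epithelial markers, KRT7, KRT8, KRT18, KRT19, PPARG, FOXA1, EPCAM and CDH1 had counts in all 16 libraries, down to 0.398 CPM for EPCAM. The differentiated urothelial markers UPK2 and UPK3A were at 0 in 11 and 14 libraries. UPK1A was at 0 in 7 and UPK1B in 6, though UPK1B reached 1517 CPM. KRT5 was at 0 in 11 libraries, KRT20 in 6, TP63 in 2 and GATA3 in 1. Of the genes named here as a check of an HDAC inhibitor response, CDKN1A, a cell cycle inhibitor, passed the test as higher in 253J, J82 and TCCSUP but not in RT112 (log2 fold change 0.26 ± 0.24 SE, edgeR quasi-likelihood test with Benjamini-Hochberg adjustment, adjusted p = 0.411). Among replicate pairs, J82 control had the largest difference in counts, with a chi-square per degree of freedom of 57.4 against 9.51 to 38.5 in the other groups, whereas the Pearson correlation of log2 CPM between replicates was 0.986 there and lowest, at 0.983, for TCCSUP with CM-1758.

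The ER folds and modifies proteins bound for the membrane or for secretion. When unfolded proteins build up, the chaperone HSPA5 (BiP) leaves the membrane sensors IRE1 (encoded by ERN1), PERK and ATF6, and this unfolded protein response begins. IRE1 splices the XBP1 mRNA so that it encodes an active transcription factor, ATF6 is cut to release another, and PERK slows translation and raises ATF4. Chaperones, disulfide isomerases and degradation factors are the best known targets of XBP1 and ATF6, often through the ER stress response elements of their promoters. Gene counts do not separate spliced from unspliced XBP1 mRNA, so the splicing step was not measured.

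The promoter sequences are shown first because they are what many of these genes share beyond their function. RefSeq promoter windows (250 bases before to 50 after each annotated start, GRCh38.p14) were found for all 10 genes, with 2 windows each for XBP1 and PDIA4. Both strands were searched for the ER stress response element ERSE (CCAAT, any 9 bases, then CCACG), for ERSE-II (ATTGG, any 1 base, then CCACG) and for the unfolded protein response element UPRE (TGACGTGG). No match overlapped another in the 10 genes. Capitals mark the fixed letters of the motif, which read as CGTGG and ATTGG or CCAAT where the motif lay on the opposite strand. The XBP1 sequence is chr22:28800570-28800679 (minus strand), the HSPA5 sequence chr9:125241344-125241453 (minus strand), the HSP90B1 sequence chr12:103930190-103930370 (plus strand) and the HERPUD1 sequence chr16:56932012-56932102 (plus strand), each read 5′ to 3′ in the direction of the gene.
XBP1: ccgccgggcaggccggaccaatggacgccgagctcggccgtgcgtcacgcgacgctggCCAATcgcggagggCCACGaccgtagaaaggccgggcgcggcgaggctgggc
HSPA5: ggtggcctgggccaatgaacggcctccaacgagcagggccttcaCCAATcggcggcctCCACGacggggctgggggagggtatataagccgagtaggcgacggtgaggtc
HSP90B1: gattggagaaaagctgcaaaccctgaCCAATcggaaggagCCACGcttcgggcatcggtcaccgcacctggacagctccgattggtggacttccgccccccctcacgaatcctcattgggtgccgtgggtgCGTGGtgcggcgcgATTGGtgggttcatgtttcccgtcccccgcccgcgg
HERPUD1: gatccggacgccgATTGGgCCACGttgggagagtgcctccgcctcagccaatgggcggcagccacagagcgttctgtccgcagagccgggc

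The matches in the CALR promoter (chr19:12938384-12938402) and the SDF2L1 promoter (chr22:21642114-21642124) both lay on the strand opposite to the gene, and are shown with 10 bases on either side to set them beside those above.
CALR: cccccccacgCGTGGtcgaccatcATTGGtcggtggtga
SDF2L1: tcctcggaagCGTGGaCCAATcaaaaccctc

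An exact ERSE was therefore present in 4 of the 10 genes and an exact ERSE-II in 2. Of all 35116 promoter windows of that length, 27 (0.0769%) held an ERSE and 19 (0.0541%) an ERSE-II. The XBP1 element began 52 bases before the annotated start, the HSPA5 element 66 bases before it, and HSP90B1 held 2 elements, 194 and 89 bases before it. The HERPUD1 element began 117 bases, the SDF2L1 element 188 bases and the CALR element 225 bases before the start. The UPRE letters were in none of the 10 genes and in 256 windows (0.729%), and DNAJB9, PDIA4, ERN1 and ATF6 held none of the motifs, which says only that these letters are not in these windows. A match is a description of the sequence and was not tested as a site.

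**Figure D1:**
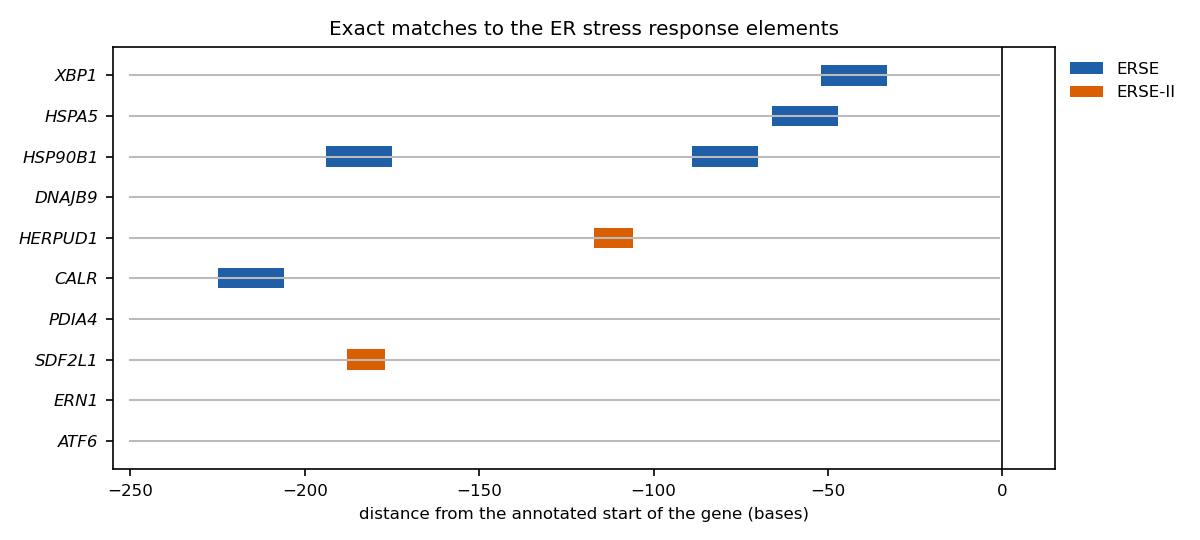
Position of exact ERSE (blue) and ERSE-II (orange) matches in the promoter of each gene, in bases before the annotated start (vertical line at 0). HSP90B1 holds 2 ERSE matches, XBP1, HSPA5 and CALR 1 each, and HERPUD1 and SDF2L1 hold an ERSE-II.

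Before treatment, CALR, HSP90B1 and PDIA4 were the most abundant of these transcripts for their length in every line. Control levels divided by exon length averaged 981 CPM (read counts scaled to a common library size) per kilobase for CALR, 724 for HSP90B1, 376 for PDIA4 and 127 for HSPA5 over the 4 lines. XBP1 itself averaged 98.9 CPM per kilobase and stood above HSPA5 in RT112 (101 against 50.5), SDF2L1 32.4, HERPUD1 28.5, DNAJB9 19.2 and ATF6 17.2. ERN1, the sensor, was the lowest at 1.33 CPM per kilobase.

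RT112 stood at the low end of the control levels for many of the genes but not all. HSPA5, HSP90B1, DNAJB9, HERPUD1, CALR and PDIA4 all had their lowest mean control CPM in RT112. ERN1 had its highest there (15.6 CPM, next 253J at 13.2), and XBP1 its second highest. ATF6 (118 against 106 CPM) and SDF2L1 (22.5 against 20.3) were above J82. The steps from RT112 to the next line below did not pass the test for these genes. The control level differed between the lines for 9 of the 10 genes in the quasi-likelihood F test (all but ERN1, adjusted p = 0.375), against 78.8% of all genes tested. Between pairs of control groups the share of all genes that differed was 53.1% for 253J and J82, 54.3% for 253J and RT112, 53.1% for 253J and TCCSUP, 52.1% for J82 and RT112, 48% for J82 and TCCSUP, and 51.5% for RT112 and TCCSUP. For HSPA5 the order was 253J, TCCSUP, J82 and RT112, and only the last step, from 471 CPM in J82 to 197 in RT112, passed the test (log2 gap 1.25 ± 0.29 SE, adjusted p = 0.00209). For CALR the order was TCCSUP, 253J, J82 and RT112, again with only the last step past the threshold (log2 gap 0.92 ± 0.17 SE, adjusted p = 0.000256). HERPUD1 separated RT112 from the next line, TCCSUP, in the same way (log2 gap 0.73 ± 0.13 SE, adjusted p = 0.000212). For HSP90B1 only the step from 253J (3593 CPM) to TCCSUP (2012 CPM) passed, for DNAJB9 the steps from J82 to TCCSUP and from TCCSUP to RT112, and for PDIA4 the steps from TCCSUP to J82 and from J82 to RT112. XBP1 ran from 262 CPM in TCCSUP through 206 in RT112 and 174 in J82 to 164 in 253J, and no neighbouring pair in that order passed the test.

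With CM-1758, most of these genes fell in 253J and TCCSUP, fewer did in J82, and in RT112 the calls were a rise of HSPA5 and a fall of ATF6. Leaving out XBP1, 8 of 9 genes were lower and 1 (ERN1) was higher in 253J, where 22.4% of all genes tested were lower and 28.8% higher at an adjusted p under 0.05. In TCCSUP 6 of 9 were lower and 1 (ERN1) was higher, against 22.1% and 32% of all genes. In J82 4 of 9 were lower and none higher, against 18.5% and 24%. Of the genes higher in J82, edgeR gave 1 (ERN1) at an unadjusted value under 0.05, and DESeq2 called 1. In RT112 1 of 9 was lower (ATF6) and 1 higher (HSPA5), against 20.2% and 27.4%. The median log2 fold change of the 9 genes was -1.29 in 253J, -1.003 in TCCSUP, -0.37 in J82 and 0.01 in RT112, beside 0.10, 0.20, 0.05 and 0.12 over all genes tested.

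These counts rested on single libraries in places. Without J82 control replicate 1, or without J82 CM-1758 replicate 3, 1 of the 9 genes was lower in J82 (CALR) and 1 was higher. Without 253J control replicate 3 or 253J CM-1758 replicate 1, 5 were lower in 253J. The single lower call in RT112 ranged from 0 to 2 over the 16 libraries left out in turn. Counts in 253J and TCCSUP also depend on scaling: with library size alone the median of all genes moved up by 0.27 and 0.31 (log2), in J82 and RT112 by 0.15 in each, and 5 of 9 genes were then lower in 253J. Of the 22 calls of the 9 genes over the 4 lines, 12 were kept under all 9 other settings and all 16 libraries left out, and those 12 were HSPA5 in RT112, HSP90B1, HERPUD1, CALR and PDIA4 in both 253J and TCCSUP, CALR in J82, SDF2L1 in 253J and ERN1 in TCCSUP.

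**Figure D2:**
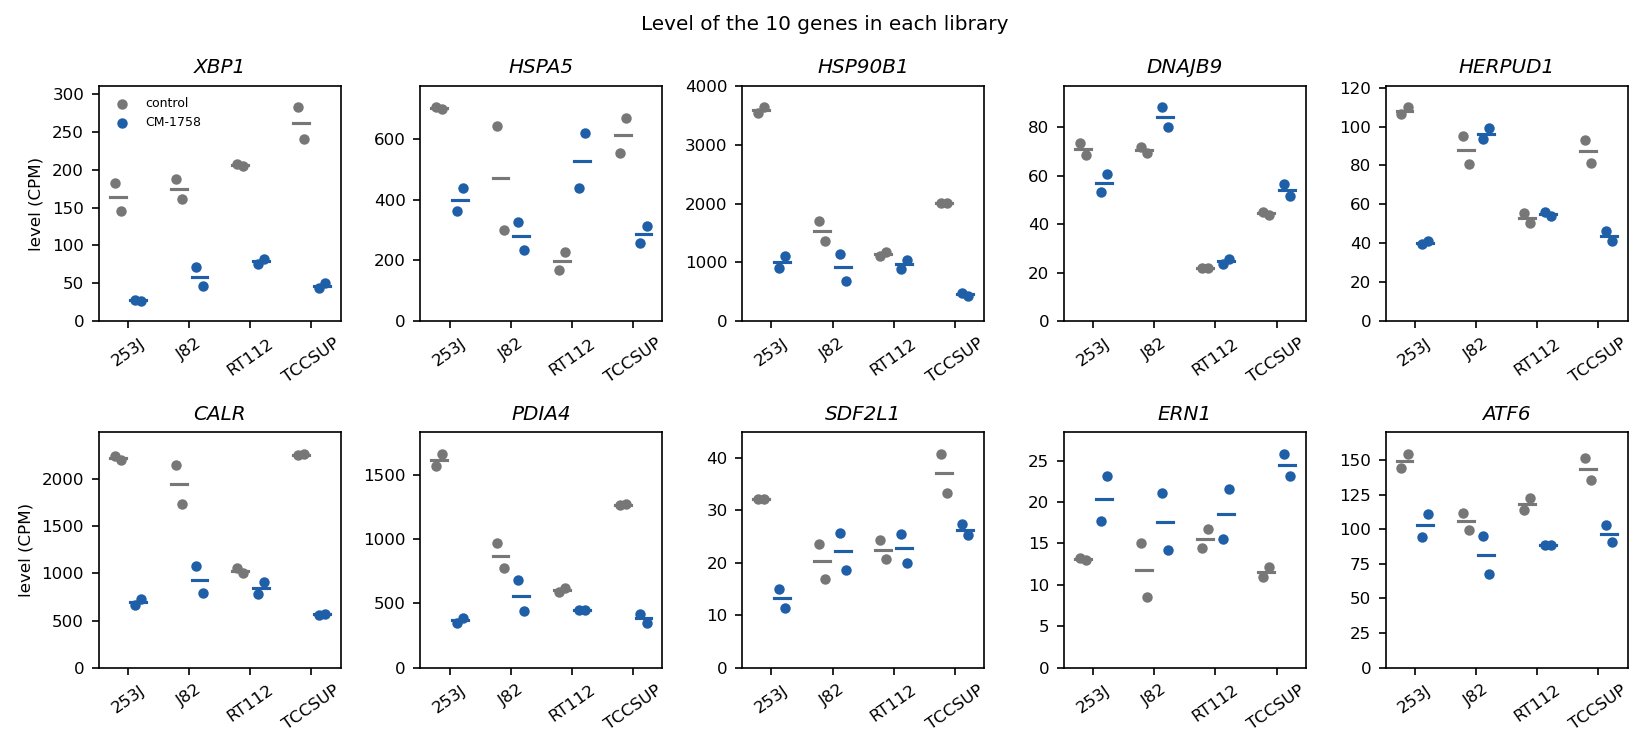
CPM of each gene in each of the 16 libraries (grey, control; blue, CM-1758), with a bar at the mean of the 2 libraries of a group and a y axis from 0 in every panel. XBP1 is lower in both treated libraries of every line, while HSPA5 is higher in both treated libraries of RT112 only and its J82 groups overlap.

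XBP1, the transcription factor, was lower with CM-1758 in every line and in no line did its groups overlap. Overlap is a description only, here and for the genes below. With 2 libraries per group, groups can lie apart with no change, and the share of all genes without overlap was not counted. In 253J it went from 183 and 145 CPM in the controls to 27.3 and 27.2 with CM-1758, a log2 fold change of -2.59 ± 0.19 (SE), or 6.02-fold lower. In TCCSUP it went from 282 and 241 CPM to 44.1 and 49.9, with a log2 fold change of -2.48 ± 0.19. The treated libraries of these lines, like those of J82 and RT112, were below every control library of the series. In J82 the controls held 188 and 161 CPM and the treated libraries 70.9 and 45.8, a log2 fold change of -1.58 ± 0.19. In RT112 the controls held 208 and 205 CPM and the treated libraries 76.0 and 82.04, a log2 fold change of -1.39 ± 0.19. The fall was thus 2.61-fold in RT112 and 2.99-fold in J82, and larger in 253J and TCCSUP. Genes lower in all 4 lines made up 6.01% of those tested, which is given only as background since the fall was part of how XBP1 was chosen. Over the other settings and the libraries left out, the XBP1 log2 fold change stayed between -2.75 and -2.31 in 253J, -2.59 and -2.16 in TCCSUP, -1.85 and -1.30 in J82, and -1.44 and -1.24 in RT112.

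Of the sensors, ERN1 rose in 253J and TCCSUP, and ATF6 fell in 253J, RT112 and TCCSUP. ERN1, which encodes IRE1, the kinase and RNase that splices XBP1 mRNA, stood at 10.96 and 12.1 CPM in TCCSUP controls and at 25.8 and 23.1 with CM-1758. It rose there by 2.12-fold (log2 fold change 1.08 ± 0.26 SE, adjusted p = 0.00251). In 253J it went from 13.3 and 13.02 CPM to 17.7 and 23.2 (log2 fold change 0.64 ± 0.26 SE, adjusted p = 0.0493), a call that 9 of the 16 libraries, left out in turn, ended. In J82, where the groups overlapped, the log2 fold change was 0.58 ± 0.26 (adjusted p = 0.0826, and 0.00671 without J82 control replicate 1, the higher of the controls). In RT112 the groups overlapped too, at 14.4 and 16.7 CPM against 15.5 and 21.5. Whether the ERN1 effect differed between the lines could not be told at this spread (interaction adjusted p = 0.263).

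ATF6, the sensor that becomes a transcription factor when cut, had the lower mean with CM-1758 in every line but did not pass the test in J82. Its groups did not overlap in any line, which by itself does not show a change. Its log2 fold change was -0.57 ± 0.16 (SE) in TCCSUP, -0.54 ± 0.16 in 253J, -0.42 ± 0.16 in RT112 and -0.37 ± 0.16 in J82, with adjusted p of 0.00719, 0.0102, 0.042 and 0.072. In RT112 it went from 114 and 123 CPM to 88.6 in both treated libraries, a call kept under 4 of the 9 other settings and with 6 of the 16 libraries left out. In TCCSUP it went from 151 and 136 CPM to 103 and 90.7. With library size alone its log2 fold change was -0.26 in TCCSUP, -0.27 in 253J and -0.27 in RT112, and it passed in none of these. The pairwise differences between lines were at most 0.20 on the log2 scale (interaction adjusted p = 0.85), which does not show that the lines respond alike.

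HSPA5, the Hsp70 chaperone that holds the sensors inactive, was the only one of the 10 genes with calls in both directions. In RT112 it rose from 167 and 228 CPM to 437 and 617, a 2.67-fold increase (log2 fold change 1.42 ± 0.30 SE, adjusted p = 0.00116). In TCCSUP it fell from 554 and 669 CPM to 257 and 314 (log2 fold change -1.10 ± 0.29 SE, adjusted p = 0.00547). In 253J it fell from 703 and 697 CPM to 361 and 439 (log2 fold change -0.81 ± 0.29 SE, adjusted p = 0.0302). The RT112 treated libraries thus reached the range of the untreated cells of the other lines, from the lowest control level of the series. In J82 the groups overlapped, with controls at 641 and 301 CPM and treated libraries at 326 and 233. The J82 call (log2 fold change -0.75 ± 0.29 SE, adjusted p = 0.0497) was kept under 4 of the 9 other settings and with 3 of the 16 libraries left out. Without J82 control replicate 1 the log2 fold change was -0.11 (adjusted p = 0.823), and without single libraries of the other lines that ended the call it stayed near -0.75 (adjusted p 0.052 to 0.0619). The 253J call was lost when any of the 4 libraries of that line was left out (adjusted p up to 0.165) and with library size alone (0.159), and the TCCSUP call reached 0.0548 without its CM-1758 replicate 1.

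The HSPA5 effect differed between the lines (interaction adjusted p = 0.000482). The log2 fold change in RT112 exceeded that in TCCSUP by 2.52 ± 0.42 (SE, adjusted p = 0.000354) and that in 253J by 2.23 ± 0.41 (adjusted p = 0.000874). It exceeded that in J82 by 2.17 ± 0.41 (adjusted p = 0.00158), and no pair among the other lines passed the test. Higher in 1 line and lower in the other 3 was the pattern of 174 of all 21297 genes tested (0.817%).

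HSP90B1, the Hsp90 of the ER lumen also called GRP94, was the most strongly expressed of the 10 in 253J and lost most of that level. It went from 3542 and 3644 CPM in 253J controls to 912 and 1108 with CM-1758 (log2 fold change -1.83 ± 0.21 SE, adjusted p = 5.12e-06). In TCCSUP it went from 2013 and 2012 CPM to 481 and 427, a 4.43-fold fall (log2 fold change -2.15 ± 0.22 SE, adjusted p = 1.37e-06). In J82 it went from 1713 and 1374 CPM to 1145 and 686 (log2 fold change -0.75 ± 0.21 SE, adjusted p = 0.00883), without overlap. That J82 call was lost without J82 control replicate 1 (adjusted p = 0.0625) or J82 CM-1758 replicate 3 (0.11). In RT112 the controls at 1107 and 1183 CPM were only just above the treated libraries at 886 and 1045, and the log2 fold change of -0.25 ± 0.21 did not pass (adjusted p = 0.349). The HSP90B1 row shares its locus with TTC41P and C12orf73 on the opposite strand and with MIR3652 on the same strand, and the strand setting of the counting was not given in the sources used here. The pseudogene HSP90B2P had 6 to 119 counts per library, against 10853 to 97809 for HSP90B1.

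CALR, the calcium-binding lectin chaperone calreticulin, followed the same order of lines. It fell from 2252 and 2269 CPM to 563 and 568 in TCCSUP (log2 fold change -1.998 ± 0.17 SE, adjusted p = 3.03e-07) and from 2251 and 2206 CPM to 669 and 733 in 253J (-1.67 ± 0.17, adjusted p = 1.42e-06). In J82 it fell from 2148 and 1742 CPM to 1073 and 788 (log2 fold change -1.06 ± 0.17 SE, adjusted p = 0.000135), the one J82 call of the 9 genes that every setting kept. RT112 controls held 1060 and 1000 CPM and treated libraries 784 and 912, which did not overlap, yet the log2 fold change of -0.28 ± 0.17 did not pass (adjusted p = 0.178). Over the 4 lines the treated libraries lay between 563 and 1073 CPM and the control libraries between 1000 and 2269.

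PDIA4, a disulfide isomerase that helps form and rearrange the disulfide bonds of new proteins, showed its largest change in 253J. It fell there by 4.37-fold, from 1570 and 1663 CPM to 350 and 389 (log2 fold change -2.13 ± 0.19 SE, adjusted p = 4.79e-07). In TCCSUP it fell from 1267 and 1271 CPM to 418 and 349 (log2 fold change -1.73 ± 0.19 SE, adjusted p = 3.18e-06). In J82 it fell from 967 and 773 CPM to 679 and 442 (log2 fold change -0.63 ± 0.18 SE, adjusted p = 0.012), a call lost without J82 control replicate 1 or J82 CM-1758 replicate 3. In RT112 it stood at 588 and 623 CPM in controls and 452 and 446 with CM-1758 without overlap, with a log2 fold change of -0.43 ± 0.18 (adjusted p = 0.0668).

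HERPUD1, a membrane protein of ER-associated degradation, had the smallest interaction p of the 9 genes (adjusted p = 8.83e-06, edgeR). It fell from 106 and 110 CPM to 39.5 and 41.0 in 253J (log2 fold change -1.42 ± 0.13 SE, adjusted p = 5.45e-07) and from 93.3 and 81.5 CPM to 46.1 and 41.1 in TCCSUP (-1.003 ± 0.13, adjusted p = 1.45e-05). In J82 the controls at 94.9 and 80.9 CPM overlapped the treated libraries at 93.6 and 99.3. In RT112 the controls at 55.3 and 50.3 CPM overlapped the treated libraries at 56.2 and 54.2. The log2 fold changes of 0.13 ± 0.13 in J82 and 0.06 ± 0.13 in RT112 did not pass (adjusted p = 0.432 and 0.732), and the RT112 value was -0.0065 without RT112 control replicate 2. The 253J and J82 effects differed by 1.56 ± 0.18 (adjusted p = 1.73e-05), and those of RT112 and TCCSUP by 1.07 ± 0.18 (adjusted p = 0.000466).

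DNAJB9, also called ERdj4, a J-domain partner of HSPA5 and a classic target of XBP1, passed the test in 253J alone, from 73.4 and 68.5 CPM to 53.2 and 60.6 (log2 fold change -0.32 ± 0.12 SE, adjusted p = 0.0385). That call was kept under 3 of the 9 other settings and with 8 of the 16 libraries left out. The value was -0.05 with library size alone (adjusted p = 0.807) and -0.23 without 253J CM-1758 replicate 1 (adjusted p = 0.242). In J82 it stood at 71.8 and 69.4 CPM against 88.2 and 80.1, and in TCCSUP at 45.1 and 43.8 against 56.8 and 51.6, without overlap. The log2 fold changes there of 0.25 ± 0.12 and 0.29 ± 0.12 did not pass (adjusted p = 0.105 and 0.0591), and they were 0.40 and 0.60 with library size alone, where they did. In RT112 it stood at 21.7 and 22.1 CPM against 23.6 and 25.7, with a log2 fold change of 0.17 ± 0.12 (adjusted p = 0.279). DNAJB9 overlaps PNPLA8 and THAP5, which lie on the opposite strand.

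SDF2L1, a component of the HSPA5 co-chaperone complexes, fell in 253J from 32.2 and 32.1 CPM to 15.01 and 11.4 (log2 fold change -1.29 ± 0.21 SE, adjusted p = 0.000117). In TCCSUP it went from 40.8 and 33.4 CPM to 27.4 and 25.2 without overlap (log2 fold change -0.49 ± 0.20 SE, adjusted p = 0.0531). In J82 and RT112 the groups overlapped, with log2 fold changes of 0.13 ± 0.21 and 0.01 ± 0.21. The difference between 253J and J82 passed the test (1.42 ± 0.29 on the log2 scale, adjusted p = 0.00191) and that between 253J and TCCSUP did not (adjusted p = 0.0544).

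**Figure D3:**
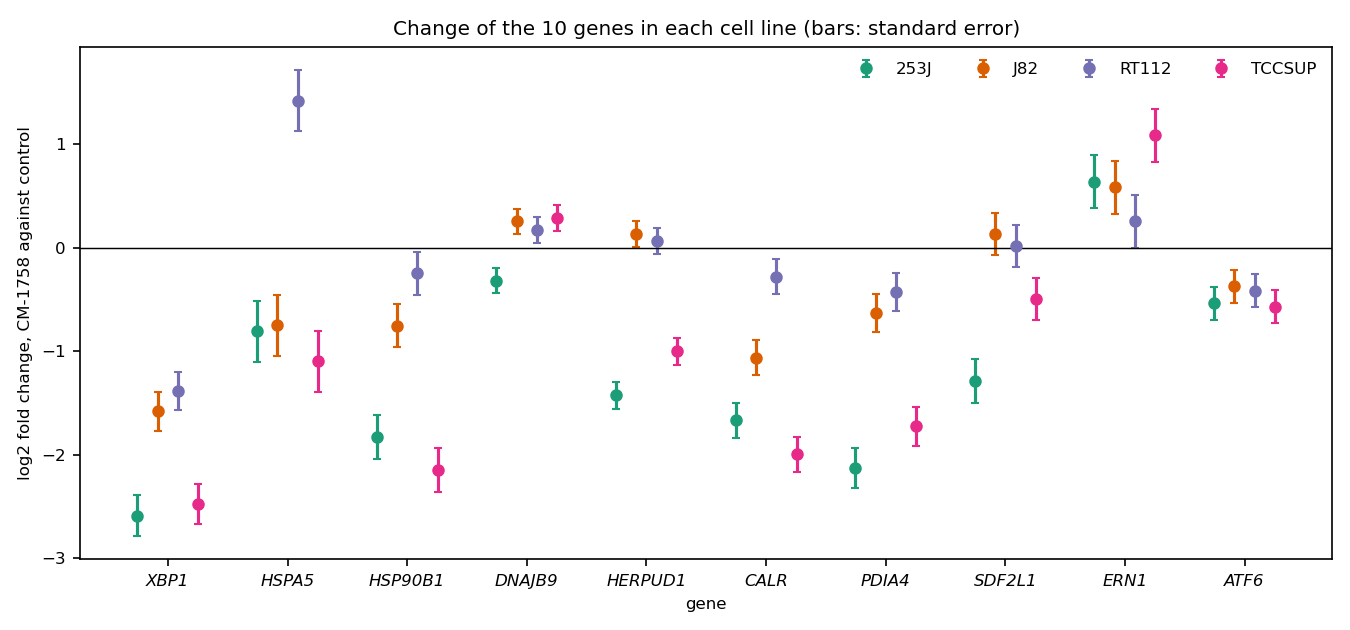
Log2 fold change of each gene with CM-1758 against control in each line, with bars of 1 standard error (2 libraries per group). HSPA5 in RT112, at 1.42, is the only value above 1 apart from ERN1 in TCCSUP at 1.08, and XBP1 lies below -1 in all 4 lines.

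The effect differed between the lines for 7 of the 9 genes in the interaction test, against 51.9% of all genes tested, and ERN1 and ATF6 were the 2 that did not pass. Between pairs of lines the share of all genes whose effect differed was 30% for 253J against J82 and also for 253J against RT112, 28.6% for 253J against TCCSUP, 22.2% for J82 against RT112 and for J82 against TCCSUP, and 27.5% for RT112 against TCCSUP. CALR separated RT112 from each of the other lines (adjusted p = 0.0259 against J82). HSP90B1, HERPUD1 and PDIA4 each separated 253J from RT112 and TCCSUP from both J82 and RT112, and 253J from J82, whereas 253J and TCCSUP were not told apart (log2 differences of 0.32 ± 0.29, 0.42 ± 0.18 and 0.40 ± 0.26). In TCCSUP the share of counts in small noncoding RNA genes was 19.3% and 21.3% in the treated libraries, beside 10.2% to 16.05% in those of the other lines. Leaving these genes out of the table changed none of the calls of the 10 genes.

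Across the 16 libraries, after centring on each line, CALR, PDIA4, HSP90B1 and ATF6 had the patterns most like that of XBP1 among the other 9 genes (Pearson r = 0.962, 0.953, 0.943 and 0.928 on log2 CPM). HERPUD1 stood at 0.786, SDF2L1 at 0.701 and HSPA5 at 0.435, and DNAJB9 at -0.188 and ERN1 at -0.769. The genes most like XBP1 among 12654 were CRTAP (0.996), which takes part in collagen prolyl hydroxylation in the ER, BAZ1A (0.996), a chromatin remodelling subunit, IKBIP (0.995), HDAC7 (0.995), a histone deacetylase, and ARSB (0.994), a lysosomal sulfatase. These values describe 16 libraries that share the treatment contrast, so any gene that falls in all 4 lines scores high.

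Other genes of the pathway were taken from 8 lists, whose counts are to be read against the share of all genes tested that was lower (253J 22.4%, TCCSUP 22.1%, RT112 20.2% and J82 18.5%) or higher (28.8%, 32%, 27.4% and 24%). Genes named below as lower in all 4 lines stand beside 6.01% of all genes tested, and those higher in all 4 beside 6.69%. The chaperones beside the 10 genes fell in large part in 253J (12 of 15 lower, 1 higher, median log2 fold change -1.14) and TCCSUP (11 lower, 2 higher, -0.83). In J82 4 were lower and 4 higher, and in RT112 7 were lower and 2 higher (medians -0.15 and -0.12). The RT112 count of 7 lower chaperones was 4 without either control library, 6 and 3 without CM-1758 replicates 1 and 2, and 4 with library size alone, where the median was 0.03. RCN1, a calcium-binding protein of the ER lumen, CANX, the membrane-bound lectin chaperone calnexin, PPIB, a prolyl isomerase, and CRELD2 were lower in all 4 lines. RCN1 showed the largest fall, with a log2 fold change of -3.66 ± 0.17 in TCCSUP, from 499 to 39.5 CPM. CANX fell from 4431 to 769 CPM in 253J (log2 fold change -2.53 ± 0.18) and by -0.82 ± 0.17 in RT112. DNAJC1, an HSPA5 co-chaperone of the ER membrane, rose in 253J, J82 and TCCSUP (0.92, 1.38 and 0.92), and CLGN, a testis homolog of calnexin, rose in RT112 (3.44, from 0.70 to 7.61 CPM), J82 (1.32) and TCCSUP (0.59). HYOU1, an exchange factor of HSPA5, fell in 253J and TCCSUP (-1.48 and -1.40), with -0.23 in J82 and 0.12 in RT112, which did not pass; it was named here after its values were seen.

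Of the disulfide isomerases, 12 of 14 were lower in each of 253J, RT112 and TCCSUP and 5 of 14 in J82 (medians -1.78, -0.70, -1.08 and -0.35). In 253J 2 were higher, and in each of the other lines 1. TXNDC5, PDIA6 and PDIA3 were lower in all 4 lines, with PDIA6 at -2.45 ± 0.20 in 253J, -2.17 ± 0.20 in TCCSUP, -0.97 ± 0.19 in J82 and -0.60 ± 0.19 in RT112. The oxidase ERO1B, which re-oxidises disulfide isomerases, rose in all 4 lines, as 6.69% of all genes tested did, from 1.47 to 17.1 CPM in TCCSUP (log2 fold change 3.55 ± 0.28) and by 0.61 ± 0.23 in 253J.

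N-glycosylation genes were lower in 14 of 16 in both 253J and TCCSUP, 10 in RT112 and 6 in J82. Higher were 0 in 253J and TCCSUP, 1 in RT112 and 2 in J82. RPN1, DDOST and STT3A, subunits of the oligosaccharyltransferase, and the glucosidase MOGS were lower in all 4 lines, RPN1 from 1385 to 343 CPM in 253J. DAD1, a small subunit of the same enzyme, rose in J82 (1.05 ± 0.14) and RT112 (0.42 ± 0.14). Translocon and signal peptidase genes were lower in 13 of 18 in 253J, 12 in TCCSUP, 11 in RT112 and 5 in J82. Higher were 1, 1, 2 and 3 in that order of lines. TRAM1, SPCS2, SEC61A1 and SEC11A were lower in all 4 lines. The largest rises were those of SEC61B in 253J, SEC11C in J82 and TCCSUP, and SEC61A2 in RT112.

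Genes of ER-associated degradation were lower in 8, 10 and 9 of 18 in 253J, TCCSUP and RT112. In J82 1 of 18 was lower, which is below the J82 share of all genes. Higher were 3 in 253J, 1 in TCCSUP, 3 in RT112 and 3 in J82. The largest rises were those of UBE2G2 in 253J and TCCSUP, EDEM3 in J82 and SYVN1 in RT112. DERL2, of the retrotranslocation complex, was the only 1 lower in all 4 lines, from -0.98 in J82 to -1.80 in TCCSUP. With 6.01% of all genes tested lower in all 4, 1 of 18 is near that background. The ubiquitin ligase SYVN1 rose in RT112 (1.76 ± 0.28) and 253J (0.85 ± 0.28). COPII genes were called in both directions, with 5 of 13 lower and 0 higher in TCCSUP and 4 lower and 4 higher in 253J. In each of RT112 and J82 1 was lower and 2 were higher. The largest rises were those of SAR1A in 253J and PREB in J82 and RT112. SEC23A, of the inner coat, was the only 1 of the 13 lower in all 4 lines, which is also near that background. Single libraries moved several of these counts. Without J82 control replicate 1 or J82 CM-1758 replicate 3, 3 N-glycosylation and 3 translocon genes were lower in J82, and without the first of these libraries 3 of ER-associated degradation. Without J82 control replicate 3, 2 of ER-associated degradation were lower. COPII genes lower in 253J were 2 without 253J CM-1758 replicate 1 or with library size alone, and those in TCCSUP were 3 with library size alone. With library size alone 7 COPII genes were higher in 253J and 3 in TCCSUP. The single lower calls in J82 and RT112 ranged over 0 to 2 and 0 to 1.

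The other sensors, proteases and bZIP factors were lower in 5 of 10 in 253J and 6 in TCCSUP, with ATF6B, the paralog of ATF6, lower in 253J, J82 and TCCSUP (-1.51, -0.82 and -1.16). In RT112 3 were lower and in J82 1, which became 4 without J82 control replicate 3 and 2 without J82 CM-1758 replicate 1. Higher were 1 in 253J (RTCB), 3 in TCCSUP, 1 in RT112 and 2 in J82. CREB3L2 rose in J82 and RT112, and CREB3L1 fell in TCCSUP from 36.2 to 8.04 CPM. ERN2 was at 0 in both TCCSUP control libraries and averaged 0.87 CPM with CM-1758, so no fold is given. In the PERK arm, of 6 genes 3 were higher and 2 lower in 253J, 4 and 1 in RT112, 2 and 2 in TCCSUP, and 1 and 4 in J82. Without 253J control replicate 2, 1 was higher and 1 lower in 253J, and without 253J CM-1758 replicate 3, 1 was lower. Without TCCSUP control replicate 2 or CM-1758 replicate 1, 1 was higher in TCCSUP, and without J82 control replicate 3 or CM-1758 replicate 3, 0 were higher in J82. Within it, ATF3 rose and ATF4 fell in all 4 lines, with ATF3 at 3.58 ± 0.35 in RT112. DDIT3, the proapoptotic factor CHOP, rose by 2.60 ± 0.18 in 253J, 1.20 ± 0.18 in RT112 and 1.04 ± 0.18 in TCCSUP and fell by 1.00 in J82. ATF4 fell by 0.44 in 253J and by 1.08 in TCCSUP.

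**Figure D4:**
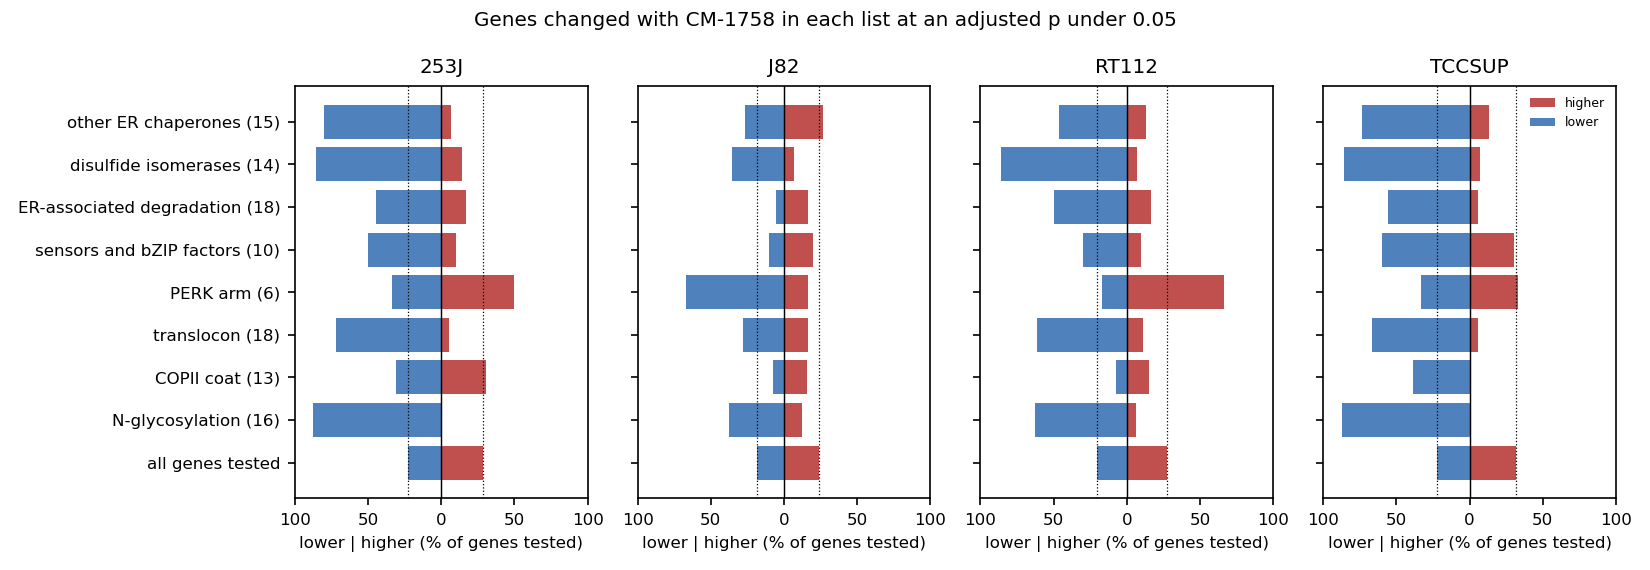
Share of the genes of each list that were lower (blue, to the left) or higher (red, to the right) with CM-1758 at an adjusted p under 0.05 in each line, with the number tested in parentheses and dotted lines at the share of all genes tested. Disulfide isomerases are lower in 12 of 14 in 253J, RT112 and TCCSUP, whereas the PERK arm has 4 of 6 genes higher and 1 lower in RT112.

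Other genes with the promoter letters were called in both directions in every line. Of the 30 tested genes outside the 10 that held an exact ERSE or ERSE-II, TCCSUP had 11 lower and 11 higher, 253J 11 and 9, RT112 7 and 8, and J82 7 and 4. That is beside 22.1% lower and 32% higher of all genes tested in TCCSUP, 22.4% and 28.8% in 253J, 20.2% and 27.4% in RT112, and 18.5% and 24% in J82. Their median log2 fold change was -0.04, -0.11, 0.17 and 0.05, in that order of lines. They included CANX, CRELD2, PDIA6 and HYOU1 among the genes above that fell, ERO1B that rose, and FICD and SERP1, which passed in no line.

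Markers of other cells were checked in the same libraries. Summed plasma cell markers, the cell type known for its need of XBP1, changed with treatment (536 to 552 CPM in 253J controls and 57.7 to 67.9 with CM-1758, and 1186 to 1314 against 344 to 422 in RT112), but SDC1, which epithelial cells also express, made up most of that sum, and MZB1, JCHAIN and TNFRSF17 were at 0 in 12 of 16 libraries. Of 8 leukocyte markers, MS4A1 and NKG7 were at 0 in 16 and 15 libraries, CD3E in 13, and CD68 had counts in every library, at up to 68.4 CPM. Their sum was 6.78 to 8.94 CPM in 253J controls and 28.3 to 38.7 with CM-1758, 27.6 to 72.7 and 11.6 to 23.4 in J82, 3.93 to 4.51 and 4.61 to 5.01 in RT112, and 39.7 to 41.5 and 18.4 to 25.4 in TCCSUP. The sum of 5 endothelial markers went from 194 to 227 CPM in TCCSUP controls to 17.5 to 19.1 with CM-1758, where TEK reached 226 CPM in a control library, and was at most 6.77 CPM in the other lines. Summed urothelial and epithelial markers were 3192 to 4343 CPM in 253J controls and 1879 to 2371 with CM-1758, and 1339 to 1460 and 519 to 602 in TCCSUP. In RT112 they were 8242 to 8642 and 6306 to 7084, and in J82 5969 to 8101 and 6971 to 7890, which overlap. The part of all these markers in the results was not tested. In bulk RNA, fewer cells of a kind and less RNA per cell cannot be told apart.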

How the data were processed

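RNA of 16 libraries (8 groups of cell line by treatment, 2 each) was sequenced, and the authors deposited a table of raw read counts per gene symbol, with no normalization. The submitters' processing notes name HISAT2, StringTie and GRCh37, with no role or version, and whether counting used strand is not given in the sources used here. Groups came from the sample labels. From the counts, 1 edgeR (version 4.0.16, R 4.3.3) quasi-likelihood model with 8 group means, TMM scaling and filterByExpr was fitted over all 16 libraries (21297 genes, 8 residual degrees of freedom, common biological coefficient of variation 0.153), with Benjamini-Hochberg adjustment and a threshold of 0.05. CPM values use the TMM library sizes, and log2 CPM for the correlations a prior count of 2. Alternatives were DESeq2 (version 1.42.0), RLE or library size scaling, other filters, thinned counts, a replicate block and each library left out. The model was tested on simulated data. Intervals and SE cover the spread between libraries only.

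Exon lengths and overlapping genes came from GENCODE v29 and promoters from RefSeq (GRCh38.p14), whose build differs from that of the counting, so no coordinates of the counting were used. The 10 genes, the gene lists and the rules were chosen with earlier results of these data known. Named genes were the 10 genes and the 5 genes most correlated with XBP1. Of each list they were those changed the same way in all 4 lines (at most 4) and the largest rise per line. The largest falls per line are named in part only. Settings of the list counts were added after seeing the data. None of the deposited per-sample columns went unused.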

Additional observations from a re-analysis of the deposited data

Results flagged for a closer look

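The CM-1758 effect differed between the 4 cell lines for 7 of the 9 genes, by an interaction F test in edgeR with Benjamini-Hochberg adjustment over all genes. The adjusted p was 0.000482 for HSPA5, which was called higher in RT112 and lower in the other lines. Its J82 groups overlapped, and the J82 call was kept under 4 of the 9 other settings. Without J82 control replicate 1 its J82 log2 fold change was -0.11, and its 253J call was lost with library size alone. The adjusted p was 8.83e-06 for HERPUD1 and 0.00323 for SDF2L1, which had lower calls in 253J and values near 0 in J82 and RT112. It was 0.000222 for HSP90B1, 0.000133 for CALR and 0.000155 for PDIA4, whose log2 fold changes were most negative in 253J and TCCSUP. It was 0.0231 for DNAJB9, whose log2 fold change was -0.32 in 253J and 0.17 to 0.29 in the other lines. About 51.9% of all genes tested passed the same test, and the dose differed between lines.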

How the results depend on the processing

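The counts below are of the 9 genes without XBP1. In 253J 1 was higher (0 with no filter, thinned counts, adjusted p under 0.01 or log2 fold change above 1) and 8 were lower (5 with library size alone, adjusted p under 0.01 or log2 fold change above 1). The lower count in 253J was 7 with RLE, no filter, at least 10 counts, thinned counts or each line alone. In J82 0 were higher (2 with RLE, library size alone or at least 10 counts in every library, 1 with DESeq2) and 4 were lower (2 with library size alone or adjusted p under 0.01, 1 with each line alone or log2 fold change above 1). The lower count in J82 was 3 with RLE, at least 10 counts or DESeq2, and 5 with the replicate block. In RT112 1 was higher (2 with at least 10 counts in every library) and 1 was lower (0 with RLE, library size alone, no filter, at least 10 counts, DESeq2, adjusted p under 0.01 or log2 fold change above 1, and 2 with each line alone). In TCCSUP 1 was higher (2 with RLE, library size alone, at least 10 counts, each line alone or DESeq2). The lower count in TCCSUP was 6 (5 with library size alone or log2 fold change above 1, 7 with thinned counts, each line alone or the replicate block). The cause of these differences was not tested. Leaving out 1 library at a time gave 0 to 1 higher and 5 to 8 lower in 253J, 0 to 1 and 1 to 4 in J82, 1 to 1 and 0 to 2 in RT112, and 1 to 1 and 5 to 7 in TCCSUP, with 6 to 7 genes whose effect differed between lines and 7 to 10 (of 10) whose control level did. Each line alone gives no value for these last tests.

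The direction turned for HERPUD1 in RT112 (-0.0065 to 0.13 over the libraries left out), SDF2L1 in J82 (-0.0887 to 0.387), SDF2L1 in RT112 (-0.174 to 0.177, and -0.0382 with thinned counts) and ERN1 in RT112 (-0.0057 to 0.467), all values that had not passed the test.

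Groups of J82, RT112 and TCCSUP share both replicate numbers and those of 253J share 1. Deviations of same-numbered libraries correlated at 0.218, 0.0427 and 0.0173 over all genes tested, and on this the number was taken as a name. Among the 10 genes, however, J82 replicate 1 was above replicate 3 in both treatments for all but HERPUD1. Whether the number marks a pairing for these genes was not tested. With the replicate block 1 gene was higher and 5 were lower in J82. With it 2 were lower in RT112 and 2 were higher in TCCSUP, and no call was lost. With 2 libraries per group, an absent call does not show an absent change.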
